A study of Mus musculus with 12 samples.

Results

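The comparison described here is between wild type (WT) mouse embryonic stem (ES) cells and WT cells after 16 days as embryoid bodies. Its members are the libraries labelled WT at day 0 and WT at day 16, with 2 libraries in each group, so 4 of the 12 libraries in the series. Day 0 cells were grown on gelatin in serum with leukaemia inhibitory factor (LIF), the cytokine that holds mouse ES cells in self-renewal. Day 16 samples came from cells that had been dissociated, moved to a medium with less serum and no LIF, and kept in low-adherent plates, where they form floating aggregates called embryoid bodies. The other 8 libraries are WT at day 8, and days 0, 8 and 16 of cells whose genotype label reads WT+1343KO-a14 (the 1343KO line). The labels give the genotype as WT without a line name or strain, and do not say whether the replicates were separate cultures. The spread behind every p-value is that between libraries, and it may be technical only. The study asks which long noncoding RNAs, and a small nucleolar RNA, matter for keeping or leaving pluripotency, and the WT endpoint gives the course that a mutant line is set against.

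Mouse ES cells are held in the naive state by a network of transcription factors built around Oct4 (Pou5f1), Sox2 and Nanog, with LIF feeding in through factors such as Klf4, Tfcp2l1 and Tbx3. When LIF is removed the network collapses, and aggregated cells sort into derivatives of all germ layers without further instruction. The outer layer of an embryoid body commonly becomes visceral endoderm, the yolk sac epithelium that makes plasma proteins for the embryo before its liver does. The inside can hold fibroblast-like mesenchyme, vessels, blood cells, beating muscle and neural tissue, in proportions that vary with serum, aggregate size and time.

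Estimated depth was 5875000 to 7568000 fragments in the 4 libraries, and 12909 and 12974 genes reached 1 FPKM at day 0 against 14043 and 14069 at day 16. FPKM is the number of fragments per kilobase of transcript, scaled to the library's total. It puts genes of different length on a shared scale, but levels of transcripts about as short as a fragment are uncertain. Across genes the replicates correlated at 0.973 (day 0) and 0.972 (day 16), and libraries of different days at 0.764 to 0.771. Genes are not independent, and these values are descriptions. Changes are day 16 minus day 0 in log2(FPKM + 1), a scale on which low genes appear to change less than they do. A standard error (SE) and a p adjusted over all 16289 tested genes come from limma, with the spread shared by all 12 libraries. An exact permutation test of 2 against 2 libraries could not go below p = 0.333.

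At an adjusted p under 0.05, 9972 of the 16289 tested genes (61.2%) differed, 5326 (32.7%) higher and 4646 (28.5%) lower at day 16. The median change over all tested genes was 0.02. Since so many genes passed, a stricter rule that also asks for a log2 change of at least 2, called 4-fold here, was read beside it. It held for 1372 genes higher (8.42%) and 510 lower (3.13%). Changes of at least 5 on the log2 scale were found for 63 genes higher and 8 lower. Of the 13681 protein-coding genes tested, 5070 were higher and 4012 lower, and of 881 long noncoding genes 156 were higher and 156 lower. A gene silent in ES cells could enter the test only by reaching 1 FPKM in a later group or the other line, so the counts of higher members below describe the lists and do not test them.

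**Figure D1:**
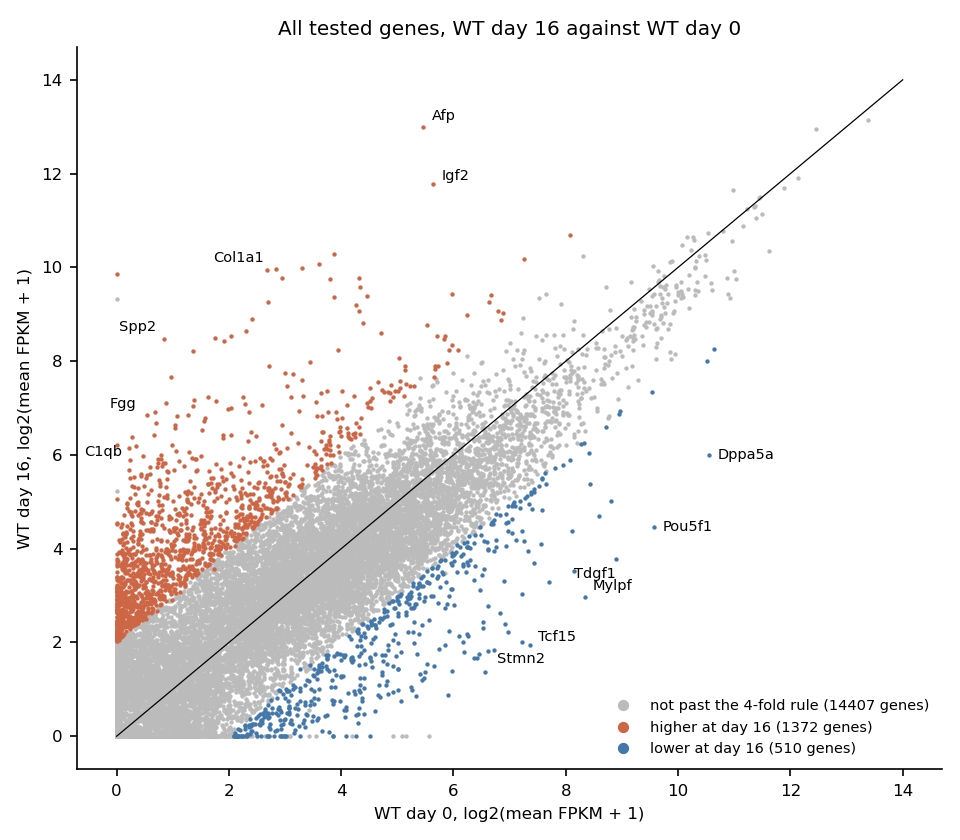
Mean expression of the 16289 tested genes in WT day 0 (x axis) and WT day 16 (y axis), as log2(mean FPKM + 1) over 2 libraries each, with equal levels on the line. The 1372 genes past the 4-fold rule at day 16 (orange) spread up to the left, with Afp at the top, and the 510 lower genes (blue) lie to the lower right.

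The 15 largest rises under the naming rule were Spp2, Afp, Col1a1, Col1a2, Postn, Col3a1, Apoa4, Apoa1, Lum, Dcn, Ttr, S100g, Plagl1, Rbp4 and Trf. Spp2, which encodes a secreted phosphoprotein, was at 0.811 and 0.801 FPKM at day 0 and at 352 and 357 at day 16 (log2 change 7.62 ± 0.19 (SE), adjusted p = 4.07e-09). S100g encodes the vitamin D-dependent calcium-binding protein calbindin-D9k. It was at 5.24 and 3.37 FPKM at day 0 and 463 and 488 at day 16. The list thus held secreted proteins of endoderm, matrix proteins of fibroblasts, the calcium-binding protein gene S100g, and 1 imprinted zinc finger gene, Plagl1. A short noncoding gene model outside the rule, Gm38079, had the single largest estimate, listed at 0 in both day 0 libraries and at 1288 and 576 FPKM at day 16.

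The 15 largest falls were Tcf15, Mylpf, Zfp42, Dppa2, Mymx, Pou5f1, Tdgf1, Gbx2, Esrrb, Stmn2, Dnmt3l, Zfp978, Dppa4, Utf1 and Halr1. Tcf15, a basic helix-loop-helix factor that marks ES cells primed to differentiate, was at 163 and 162 FPKM at day 0 and at 3.01 and 2.65 at day 16, which is 57.6-fold lower (log2 change -5.42 ± 0.12 (SE), adjusted p = 1.94e-09). Mylpf, a myosin light chain of fast skeletal muscle, had 556 and 89.1 FPKM in the day 0 libraries and 12.5 and 1.2 at day 16. Its groups did not overlap, yet the day 0 libraries differed more from each other than for the other genes in this list, and the SE was 0.99. Mymx, which encodes the myoblast fusion peptide myomixer, was at 85.9 and 82.7 FPKM at day 0 and at 4.38 and 0 at day 16.

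The labels call every sample embryonic stem cells, day 16 included, and markers of cell types were read against that. Pou5f1 was at 762 and 761 FPKM at day 0 and at 23.6 and 18.6 at day 16, Sox2 at 174 and 168 against 11 and 12.8, and Nanog at 142 and 153 against 6.83 and 7.45. All 5 ES cell markers (with Zfp42 and Esrrb) were separated by a wide gap, so the day 16 label holds for the cells of origin and not for the RNA measured. Defining genes of yolk sac endoderm (Afp, Ttr, Apob, Apoa1), fibroblasts (Col1a1, Col1a2, Col3a1, Dcn), endothelium (Cdh5, Kdr) and macrophages (Csf1r, C1qa, Adgre1) were all higher at day 16. Markers of mature smooth muscle (Myh11) and intestine (Cdh17) stayed under the filter, as did Alb. Of the trophoblast markers, Prl3d1 was listed at 0 in both day 16 libraries and Tpbpa rose from 0 in both day 0 libraries to 1.03 and 1.14 FPKM (log2 change 1.06 ± 0.28 (SE), limma, adjusted p = 0.00927). In the trophoblast list 10 of 18 tested genes rose, 5 past the 4-fold rule, and 2 fell. Those 5 include Hand1 and the imprinted gene Peg10 (61.2 and 62.6 against 714 and 674), which other tissues also express. In bulk RNA, fewer cells of a type and less RNA per cell cannot be told apart.

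**Figure D2:**
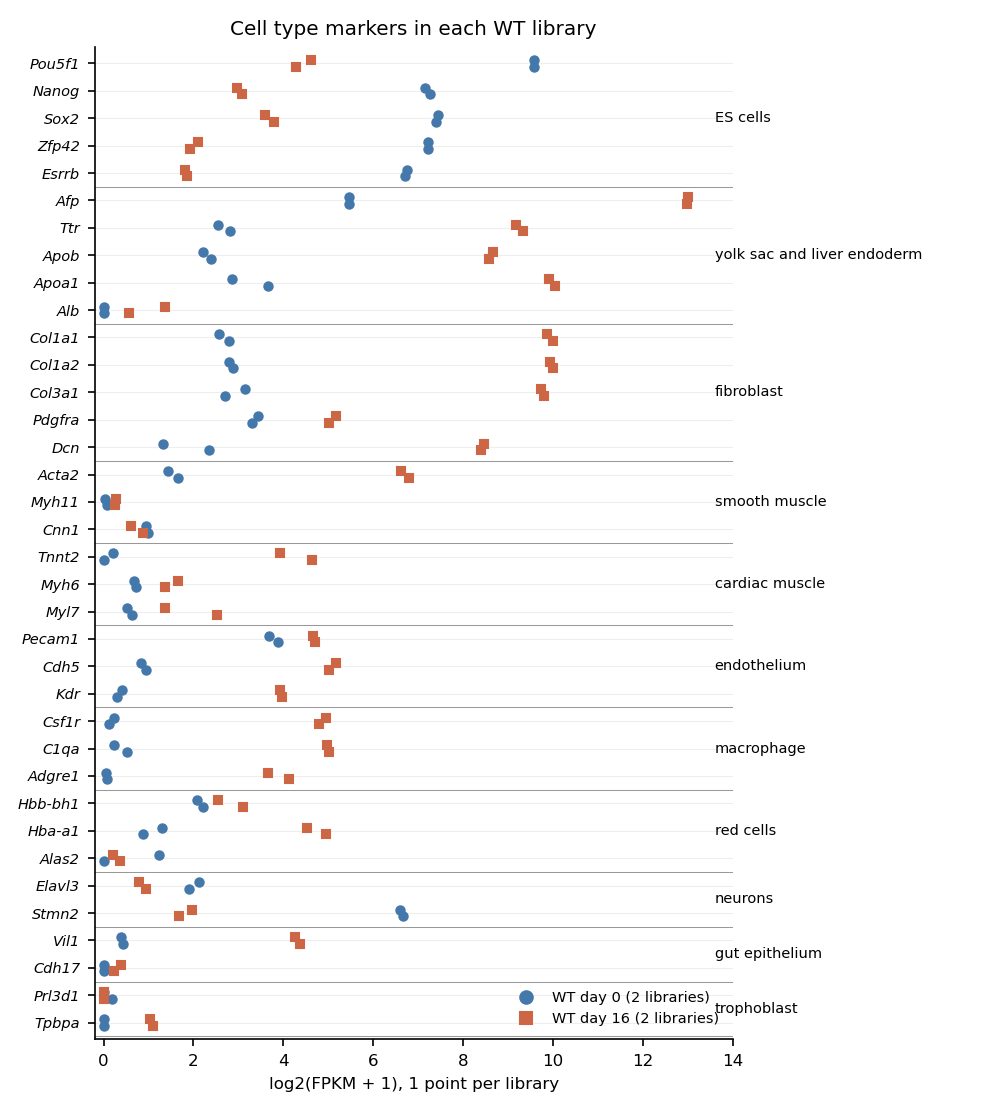
Level of each cell type marker in the 4 WT libraries, as log2(FPKM + 1), with day 0 as circles and day 16 as squares and 1 point per library. The 5 ES cell markers lie to the left at day 16, and the markers of endoderm, fibroblasts, endothelium and macrophages lie to the right, except that Alb stays near 0 and Pdgfra and Pecam1 shift less.

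The naive network was down as a whole. Each of the 21 genes in the naive list and each of the 13 in the core list fell, 19 and 11 of them past the 4-fold rule, with medians of -3.79 and -3.74. The summed naive list went from 0.594% and 0.596% of all FPKM to 0.038% and 0.0429%. Dppa5a, an RNA-binding protein of ES cells and the most abundant member, was at 1483 and 1515 FPKM at day 0 and 54.8 and 70.6 at day 16. Tdgf1, the Nodal co-receptor Cripto, was at 465 and 480 FPKM and then at 12.9 and 12.5 (log2 change -5.11 ± 0.06 (SE), adjusted p = 4.37e-10).

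The smallest falls in these lists left a remainder that differed between genes. Lin28a, which blocks let-7 microRNA maturation, was still at 45.7 and 47.3 FPKM at day 16, from 132 and 126. Zfp57, which protects imprinted methylation, went from 183 and 180 to 41.8 and 36.8 FPKM. Tbx3, which is also used in later mesoderm and endoderm, was at 22.9 and 23.7 FPKM and then at 7.21 and 6.73. The 2 members of the naive list short of the 4-fold rule were Tbx3 and Tet2, and those of the core list Lin28a and Trim71. Of the genes of the formative state that follows naive pluripotency, 5 of 12 were lower and 2 higher. Among all tested genes 28.5% were lower and 32.7% higher. Fgf5 and Otx2, its usual markers, did not pass, with Otx2 at 3.75 and 3.88 FPKM against 3.32 and 5.59. Fgf5 was called higher at a pseudocount of 0.1 (limma, adjusted p = 0.0349), under TPM scaling (0.0362) and with the replicate number as a block (0.0373).

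Signals that ES cells send to themselves went down with the network. Fgf4, the ligand that primes ES cells for differentiation, was at 71.4 and 72.1 FPKM at day 0 and at 1.71 and 3.3 at day 16. Nodal (25.4 and 28.7 against 1.74 and 2.06) and its feedback inhibitors Lefty1 (72.6 and 63.2 against 4.09 and 2.7) and Lefty2 (33.3 and 29.6 against 1.24 and 2.14) moved in the same direction, as did the related ligand Gdf3 (36.1 and 38.8 against 0.7 and 1.28). Readouts of FGF signalling fell too. Etv4 was at 72.3 and 69.1 FPKM and then 3.44 and 2.6 (log2 change -4.16 ± 0.18 (SE), adjusted p = 1.09e-07), and Spry4 at 41.1 and 40.5 and then 3.74 and 3.28. Receptors went the other way: Fgfr2 rose from 5.06 and 5.11 to 27.3 and 31.7 FPKM and Fgfr3 from 1.62 and 2.73 to 9.58 and 12.9. In the FGF list as a whole 10 of 20 tested genes were lower and 5 higher, against 28.5% and 32.7% of all tested genes.

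Genes of the primitive streak, a transient stage on the way to mesoderm and endoderm, were mixed, with 4 lower and 3 higher of 10 tested (1 higher without day 16 replicate 2, 5 under TPM scaling). Of all tested genes, 28.5% were lower and 32.7% higher. Mixl1, Mesp1, Mesp2 and Tbx6 stayed under the filter, and the streak factor T (Brachyury) was under 1 FPKM in all 4 libraries. Eomes fell from 2.51 and 3.16 to 0.883 and 0.827 FPKM, and Gsc, Evx1 and Lhx1 were the higher ones. The calls of Evx1 (limma, adjusted p = 0.0804 and 0.0765) and Gsc (adjusted p = 0.0626 and 0.0537) were lost without day 0 replicate 2 or day 16 replicate 2.

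Genes of the germ line were read next, since ES cells express many of them. Of 17 tested, 11 fell and 2 rose. Stra8, a gatekeeper of meiosis, was at 20.6 and 18.7 FPKM at day 0 and at 1.07 and 0.456 at day 16. Ddx4 (Vasa) went from 9.76 and 8.45 to 0.229 and 0.333 FPKM and Mael, a piRNA pathway factor, from 4.83 and 4.58 to 0.574 and 0.11. The exceptions were Prdm1 and the X-linked homeobox gene Rhox5, which was at 42.1 and 31 FPKM and then at 166 and 189. In the list for the rare 2-cell-like state 7 of 8 tested genes fell, and 4 fell without day 0 replicate 2. The translation factor gene Eif1a was its most abundant member and was at 47.8 and 42.7 FPKM at day 16 (log2 change -1.26 ± 0.09 (SE)). Of the Zscan4 copies tested, Zscan4b was at 1.19 and 0.964 FPKM and then at 0.153 and 0.377, and Zscan4f at 3.27 and 2.58 and then at 0.45 and 0.374. The Zscan4b call was lost without day 0 replicate 1 (limma, adjusted p = 0.0594) or day 16 replicate 1 (adjusted p = 0.0534). Reads of such near-identical copies may be split among them.

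Among the 71 lists, plasma proteins gained most in share of FPKM. Afp, alpha-fetoprotein, the main plasma protein of the yolk sac, was at 42.8 and 43.4 FPKM at day 0 and at 8246 and 8139 at day 16, a 190-fold difference in means (log2 change 7.54 ± 0.21 (SE), adjusted p = 8.97e-09). It then held 1.8% of all FPKM and was second only to mt-Atp8 among named genes. Of the 34 plasma proteins listed, 27 could be tested, 26 rose (23 past the 4-fold rule) and Fetub fell. The median change was 4.09. The list's share of all FPKM went from 0.0163% and 0.0171% to 2.57% and 2.63%.

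The plasma proteins covered carriers, clotting factors and protease inhibitors alike. Among carriers, Trf, transferrin, was at 15.8 and 11.6 FPKM and then at 1246 and 1255, Rbp4, which carries retinol, at 9.3 and 13 and then at 1077 and 1082, and Ttr, which carries thyroid hormone, at 4.87 and 6.08 and then at 583 and 647. The fibrinogen chains rose in step, Fga to 120 and 118 FPKM, Fgb to 83.6 and 86.8 and Fgg to 114 and 116, each from under 1 FPKM. Prothrombin (F2) was at 0.239 and 0.828 FPKM and then at 34.6 and 39.6, and Kng1, kininogen, at 0.298 and 0.107 and then at 82.8 and 82.2. The alpha-1-antitrypsin copies Serpina1a to Serpina1e all rose, but they are near-identical and the split of reads among them is uncertain. The carriers, fibrinogen chains, F2 and Kng1 were higher in both day 16 libraries than in either day 0 library. The days did not overlap, in either direction, for 12929 of the 16289 tested genes and for 9971 of the 9972 called ones. The lack of overlap therefore does not set the plasma protein genes apart.

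Albumin was the exception. Alb was listed at 0 in both day 0 libraries and at 1.59 and 0.474 FPKM at day 16, under the filter, while its neighbour Afp was the most abundant nuclear-encoded messenger. Of the list 7 members stayed under the filter, among them Alb, Ahsg, Hp and Serpina6. Of the 24 genes listed for hepatocyte metabolism only 7 could be tested. The urea cycle gene Cps1, the gluconeogenic genes G6pc and Pck1, and the cytochromes Cyp3a11, Cyp2e1 and Cyp7a1 were among those under the filter.

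Promoters of the plasma protein genes were read for GTTAAT, a motif known from promoters of liver-expressed genes, since the tested members rose almost throughout. Windows run from 250 bases before to 50 bases after the start of transcription (RefSeq, GRCm38.p6), and both strands were searched. Of the 34 genes 28 had at least 1 window, and 14 of their 31 windows (45.2%) held GTTAAT, against 4.6% of the 14231 windows of tested genes. The 5 Serpina1 copies contribute related sequences. For apolipoproteins and lipid carriers it was 3 of 21 windows (14.3%), those of Apoc2, Apoe and Fabp1, the last listed at 0 FPKM at both days. The list windows include genes under the filter, such as Alb and Itih1 with a match, while the 4.6% is over tested genes only. A match is a description of letters and not a bound site. The windows of Afp (chr5:90490464-90490763, plus strand), of its silent neighbour Alb (chr5:90460620-90460919, plus strand) and of the fibrinogen gene Fgb (chr3:83049814-83050113, minus strand) are shown 5′ to 3′ because the first and the last rose and the middle one was hardly detected, and each holds the match, in capitals (on the other strand in Fgb).
Afp: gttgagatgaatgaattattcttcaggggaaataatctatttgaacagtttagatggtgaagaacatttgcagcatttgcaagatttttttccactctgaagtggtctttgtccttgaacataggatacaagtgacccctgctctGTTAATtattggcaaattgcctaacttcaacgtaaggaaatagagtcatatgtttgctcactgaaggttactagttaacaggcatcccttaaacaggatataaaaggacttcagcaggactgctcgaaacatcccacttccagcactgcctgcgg
Alb: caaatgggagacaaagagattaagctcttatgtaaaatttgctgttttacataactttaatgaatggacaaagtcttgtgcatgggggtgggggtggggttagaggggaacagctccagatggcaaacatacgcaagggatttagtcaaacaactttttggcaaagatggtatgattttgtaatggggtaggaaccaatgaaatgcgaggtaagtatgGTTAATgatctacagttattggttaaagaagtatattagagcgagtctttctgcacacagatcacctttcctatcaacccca
Fgb: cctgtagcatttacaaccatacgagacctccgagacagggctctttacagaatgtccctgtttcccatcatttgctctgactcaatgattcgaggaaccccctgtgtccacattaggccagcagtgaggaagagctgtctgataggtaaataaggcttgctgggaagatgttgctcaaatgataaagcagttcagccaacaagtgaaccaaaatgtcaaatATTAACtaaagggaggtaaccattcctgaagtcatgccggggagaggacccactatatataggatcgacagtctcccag

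Lipoprotein genes moved with the plasma proteins. Of 18 tested, 15 rose and none fell. Apoa1, the main protein of high-density lipoprotein, was at 6.23 and 11.6 FPKM and then at 970 and 1064, Apoa4 at 1.42 and 0.474 and then 193 and 213, and Apob, the scaffold of lipoproteins that carry fat out of the cell, at 3.6 and 4.25 and then 408 and 384. Mttp, which loads lipid onto Apob, rose from 3.08 and 2.51 to 39.5 and 35.3 FPKM. Uptake receptors of the visceral endoderm moved less: Cubn, cubilin, from 15.9 and 15.4 to 40.7 and 41.3 and its partner Amn from 4.88 and 8.65 to 25.1 and 28.7. Apoe, made by many cell types, was already at 271 and 264 FPKM in ES cells and reached 1549 and 1749.

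The transcription factors of endoderm fell into those that rose and those already present. Hnf4a, the central factor of hepatic and visceral endoderm genes, was at 1.48 and 1.04 FPKM at day 0 and at 25 and 24.7 at day 16 (log2 change 3.52 ± 0.24 (SE), adjusted p = 1.34e-06). Foxa1 was at 0.611 and 0.337 FPKM and then at 11.1 and 10.1, and Foxa2 at 2.36 and 3.31 and then at 17.8 and 12.9. Gata4 was at 19.4 and 23.8 FPKM at day 0 and 26.7 and 28.5 at day 16 and did not pass (log2 change 0.35 ± 0.18 (SE), adjusted p = 0.127), nor did Sox17 at 12.5 and 11.1 against 13.2 and 19.4. Sox7 and the intestinal factor Cdx1 fell. Cdx2, another intestinal factor of the list, rose from 0.708 and 0.249 to 2.67 and 5.03 FPKM (log2 change 1.69 ± 0.28 (SE), adjusted p = 0.000528). In total 12 of 18 tested factors were higher and 2 lower.

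Most gut and epithelial genes that could be tested rose. In the epithelial list 17 of 23 tested genes rose, 11 past the 4-fold rule, and 3 fell. Of 10 gut genes tested, 7 rose and 1 fell, with Tff3, a mucosal repair peptide, at 0.62 and 1.59 FPKM and then at 103 and 123, Muc13, a membrane mucin, at 0.239 and 0.246 and then at 39.1 and 38.6, and Vil1, villin, at 0.313 and 0.345 and then at 18.2 and 19.6. The other 10 of the 20 listed stayed under the filter, among them Muc2, Sis, Lgr5 and Cdh17, which mark mature or stem cells of the intestine. Simple-epithelium keratins rose, Krt18 from 13.4 and 15.3 to 292 and 309 FPKM, Krt8 from 15 and 15.2 to 165 and 162 and Krt19 from 1.19 and 1.15 to 56 and 59.7. Keratins of stratified skin appeared as well: Krt5 was at 0.133 and 0 FPKM and then at 16.6 and 18.5, Krt15 at 0.181 and 0 and then at 6.93 and 7.74, and their regulator Trp63 at 0.0573 and 0 and then at 3.26 and 3.67. E-cadherin (Cdh1) fell slightly, at 101 and 100 FPKM against 84.1 and 81 (log2 change -0.28 ± 0.06 (SE), adjusted p = 0.00343), and Epcam was at 78.9 and 72 against 60.6 and 57.7.

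Mesenchyme was the other large gain. Each of the 24 genes in the fibrillar matrix list rose, 23 of them past the 4-fold rule, with a median of 5.05, and the list went from 0.0501% and 0.0512% of all FPKM to 1.34% and 1.4%. The chains of type I collagen stayed close to each other at both ends: Col1a1 was at 4.92 and 5.91 FPKM and then 937 and 1018, and Col1a2 at 5.96 and 6.31 and then 976 and 1031. Small proteoglycans that bind collagen fibrils rose from similar lows, Dcn (decorin) to 353 and 336 FPKM, Lum (lumican) to 372 and 344 and Bgn (biglycan) to 100 and 89.2. Sparc, a collagen-binding matricellular protein, and Fn1, fibronectin, were already expressed in ES cells at 152 and 150 and at 44 and 46.1 FPKM, and reached 1165 and 1161 and 428 and 448. Eln, elastin, was the 1 member short of the 4-fold rule, at 0.0546 and 0.0915 FPKM at day 0 and 2.88 and 2.22 at day 16. Its log2 change was 1.72 ± 0.22 (SE) on the log2(FPKM + 1) scale, which shrinks changes at levels this low.

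Enzymes that fold, trim and cross-link collagen rose with their substrate. Lox, lysyl oxidase, was at 0.512 and 0.76 FPKM and then at 104 and 98.9, and Loxl2 at 2.89 and 2.58 and then at 79.8 and 82. The prolyl hydroxylase subunit P4ha1 went from 22.7 and 21.1 to 141 and 143 FPKM, and Serpinh1, the collagen chaperone HSP47, from 112 and 107 to 512 and 558. The gelatinases parted: Mmp2 rose from 5.02 and 4.16 to 84.4 and 83.7 FPKM and Mmp9 fell from 3.93 and 3.93 to 0.687 and 0.76. Their inhibitors parted too, with Timp3 at 1.73 and 1.32 and then 62.3 and 57.5, and Timp1 at 18.1 and 17.8 and then 8.26 and 9.55. The Timp1 call was lost (limma, adjusted p = 0.0591, 0.0541 and 0.0833) when day 0 replicate 1, day 0 replicate 2 or day 16 replicate 1 was left out. Basement membrane genes started high and rose less (16 of 18 tested, median 1.44). Laminin Lama1 was at 32.4 and 30.6 FPKM against 28.9 and 28 and Lamc1 at 85.6 and 93.5 against 98.2 and 102, neither past the test, while Col4a5 went from 0.471 and 0.217 to 49.7 and 45.1.

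Of 23 mesenchymal transcription factors tested, 20 rose and none fell. Hand2 was at 0.308 and 0.635 FPKM and then at 33.8 and 36.2, and its relative Hand1 at 2.36 and 1.32 and then at 58.9 and 65.7. Tcf21, a factor of visceral and epicardial mesenchyme, was listed at 0 in both day 0 libraries and at 15.3 and 12.5 FPKM at day 16. Snai2 rose from 0.954 and 0.284 to 23.8 and 25.8 FPKM and Twist1 from 2.76 and 3.31 to 19 and 19.4. The bone factor Runx2 did not pass, at 1.58 and 0.0871 FPKM against 2.97 and 1.65. Of 14 cartilage and bone genes tested 10 rose and 4 fell: Col9a2 reached 130 and 136 FPKM from 5.31 and 4.76 and Col2a1 13.1 and 13.7 from 0.964 and 0.907, whereas the cartilage proteoglycan Acan fell and the late bone genes Sp7, Ibsp and Bglap stayed under the filter. Of 10 fat cell genes tested 9 rose and none fell, with Lpl, lipoprotein lipase, at 1.55 and 1.41 and then at 44.8 and 40.8 FPKM, and Adipoq, Plin1 and Lep under the filter.

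Smooth muscle genes rose without the latest marker. Acta2, smooth muscle actin, was at 1.71 and 2.14 FPKM and then at 97.5 and 111 (log2 change 5.17 ± 0.1 (SE), adjusted p = 1.46e-09), Tagln at 6.94 and 4.27 and then at 60.3 and 60.9, and Myl9 at 2.45 and 2.76 and then at 47.4 and 54.8. Cnn1, calponin, was at 0.934 and 0.99 FPKM against 0.533 and 0.833 and did not pass (adjusted p = 0.715), and Myh11, the myosin of contracting smooth muscle, was under the filter. In the list 15 of 17 tested genes were higher. The CArG box, the site of serum response factor, was found in 2 of the 17 windows of this list (11.8%), against 1.31% of all windows. The matches were in Myl6 and Myl9. Myl6 was already at 208 and 234 FPKM at day 0 and was at 368 and 386 at day 16.

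Heart muscle genes were low and more variable. Of 18 tested, 12 rose and 1 fell. Tnnt2, cardiac troponin T, was at 0.164 and 0 FPKM and then at 14.3 and 24, Mybpc3 at 0.329 and 0.0847 and then at 22.4 and 27.2, and the factor Tbx20 at 0.544 and 0.919 and then at 15.4 and 13.7. The fetal troponin Tnni1 was at 23.8 and 31.8 FPKM at day 16 and the adult Tnni3 fell from 2.18 and 3.35 to 0 and 0.227, a call lost without day 0 replicate 2 (limma, adjusted p = 0.0724) or day 16 replicate 1 (adjusted p = 0.0704). Atrial myosin Myh6 (0.607 and 0.658 against 2.13 and 1.57) and the factor Nkx2-5 (0.62 and 1.2 against 0.234 and 0.561) did not pass. Myh6 was called higher with the 4 libraries alone (limma, adjusted p = 0.0225). Of 16 skeletal muscle genes only 3 were tested, and the factors Myod1, Myog, Myf5 and Pax7 stayed under the filter.

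Vessel genes rose in 16 of 20 cases. Cdh5, VE-cadherin, was at 0.785 and 0.924 FPKM and then at 34.9 and 31.4, the VEGF receptor Kdr at 0.336 and 0.225 and then at 14.2 and 14.6, and Lyve1, which marks lymphatic vessels and some macrophages, at 0.0487 and 0.35 and then at 21.3 and 23.4. The ligand Vegfa rose from 17.1 and 15.8 to 83 and 90.7 FPKM. Pecam1, which ES cells also express, moved from 11.9 and 13.8 to 24.1 and 25 FPKM. Etv2, the transient inducer of endothelium, was listed at 0 in both day 16 libraries, and Vwf did not pass.

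Blood lineages were unequal. Each of the 23 macrophage genes tested rose, with a median of 4.11. Fcer1g, an Fc receptor adaptor, was listed at 0 in both day 0 libraries and at 34.7 and 30.6 FPKM at day 16, Mrc1, the mannose receptor, was at 0.71 and 0.8 and then at 30.8 and 28.4, and Cx3cr1, the fractalkine receptor, at 0.183 and 0.228 and then at 23.4 and 20.2. Timd4 and Cd163 stayed under the filter. Platelet factor Pf4 was listed at 0 in both day 0 libraries and at 59.8 and 87 FPKM at day 16, a gene that macrophages as well as megakaryocytes can express, and 6 of 13 megakaryocyte genes could be tested, each of them higher. Lymphoid and granulocyte genes were nearly silent, with 1 of 15 and 2 of 16 reaching the filter.

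Red cell genes stayed low. Of 7 globin genes tested 6 rose, from near 0. The exception, the embryonic globin Hbb-bh1, was at 3.24 and 3.64 FPKM at day 0 and 4.84 and 7.55 at day 16 (log2 change 0.67 ± 0.41 (SE), adjusted p = 0.19), although it stood at 760 and 844 in the day 8 libraries. Hbb-bh1 was called higher with the 6 WT libraries alone (limma, adjusted p = 0.0309). The alpha globin genes of adult type did pass, Hba-a1 at 1.47 and 0.823 and then 21.9 and 29.8 FPKM, down from 99.2 and 99 at day 8. The adult beta globin Hbb-bs was at 0 and 0.498 at day 0, 6.48 and 2.99 at day 8 and 6.69 and 10.6 at day 16. Globin copies are near-identical, so the split of reads among Hba-a1 and Hba-a2 and among Hbb-bs and Hbb-bt is uncertain. Of 12 other erythroid genes tested only 1 rose, and the red cell factors Gata1 and Klf1 were under 1 FPKM in all 4 libraries. The transferrin receptor Tfrc, which dividing cells also use, fell from 85 and 89 to 31.9 and 30.3 FPKM.

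Factors that feed or attract these cells rose beside them. Csf1, the macrophage growth factor, was at 0.924 and 0.531 FPKM and then at 17.6 and 16.7, Kitl, stem cell factor, at 0.678 and 0.699 and then at 11.5 and 9.3, and the chemokine Cxcl12 at 1.31 and 1.55 and then at 64.3 and 67.6 with its receptors Cxcr4 and Ackr3 also higher. Complement genes rose in 15 of 17 cases, those of C1q, which macrophages make, and those usually made by liver, such as Cfi, complement factor I, at 0.142 and 0.183 and then 74.3 and 64.4 FPKM. The inflammatory cytokines Il6, Il1b and Tnf stayed under the filter. Lysosomal genes, high in both macrophages and yolk sac endoderm, rose in 24 of 25 cases, with Ctsb, cathepsin B, at 25.3 and 25 and then at 391 and 387 FPKM and Lgmn, legumain, at 31.5 and 31.8 and then at 266 and 273. The part of each cell type in those shared genes was not tested.

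Of 15 antigen presentation genes tested 10 rose and 1 fell, and the class II genes H2-Ab1, H2-Eb1 and Cd74 and the proteasome gene Psmb9 did not pass. B2m, the invariant chain of class I molecules, was at 18.5 and 19.3 FPKM and then at 544 and 525 (log2 change 4.75 ± 0.09 (SE), adjusted p = 1.31e-09), and the class I heavy chain H2-D1 at 5.23 and 5.33 and then at 39.6 and 43. The proteasome subunit Psmb10 fell from 30.1 and 33.4 to 6.95 and 5.08 FPKM. Of 20 interferon-responsive genes 16 rose, such as Ifit3, listed at 0 in both day 0 libraries and at 11.2 and 11.5 FPKM at day 16, and Rsad2, at 0.145 and 0.187 and then at 9.71 and 11.8. Ifitm3, which ES cells hold high without interferon, fell from 151 and 155 to 116 and 107, and Irf1 did not pass.

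Neural genes moved both ways. Of 17 neural progenitor genes tested, 6 rose and 6 fell, shares near those of all tested genes (32.7% higher and 28.5% lower). Of 12 neuronal genes 2 rose and 5 fell. Stmn2, a microtubule regulator of growing axons, was at 95.4 and 99.7 FPKM in ES cells and at 2.88 and 2.2 at day 16, 38.4-fold lower in the means (log2 change -4.8 ± 0.13 (SE), adjusted p = 6.35e-09). Ina, an intermediate filament of neurons, went from 26.8 and 24.9 to 1.81 and 2.28 FPKM, the oligodendrocyte factor Olig2 from 11.3 and 10.7 to 0.127 and 0.491, and the neural factor Sox1 from 10.3 and 9.68 to 0.868 and 0.482. Pax6 fell from 2.36 and 4.37 to 1.22 and 1.02, and Dcx, Syt1 and Rbfox3 stayed under the filter. The 2 neuronal genes that rose were Gap43, a growth cone protein, from 5.66 and 4.66 to 11.9 and 16.3 FPKM, and Isl1, from 0.552 and 0.765 to 4.16 and 5.06. Progenitor genes that rose included Nes (3.56 and 3.06 against 9.94 and 10.2), Fabp7 (0 and 0 against 5.89 and 7.18) and Irx3 (0.928 and 1.13 against 7.67 and 7.47).

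**Figure D3:**
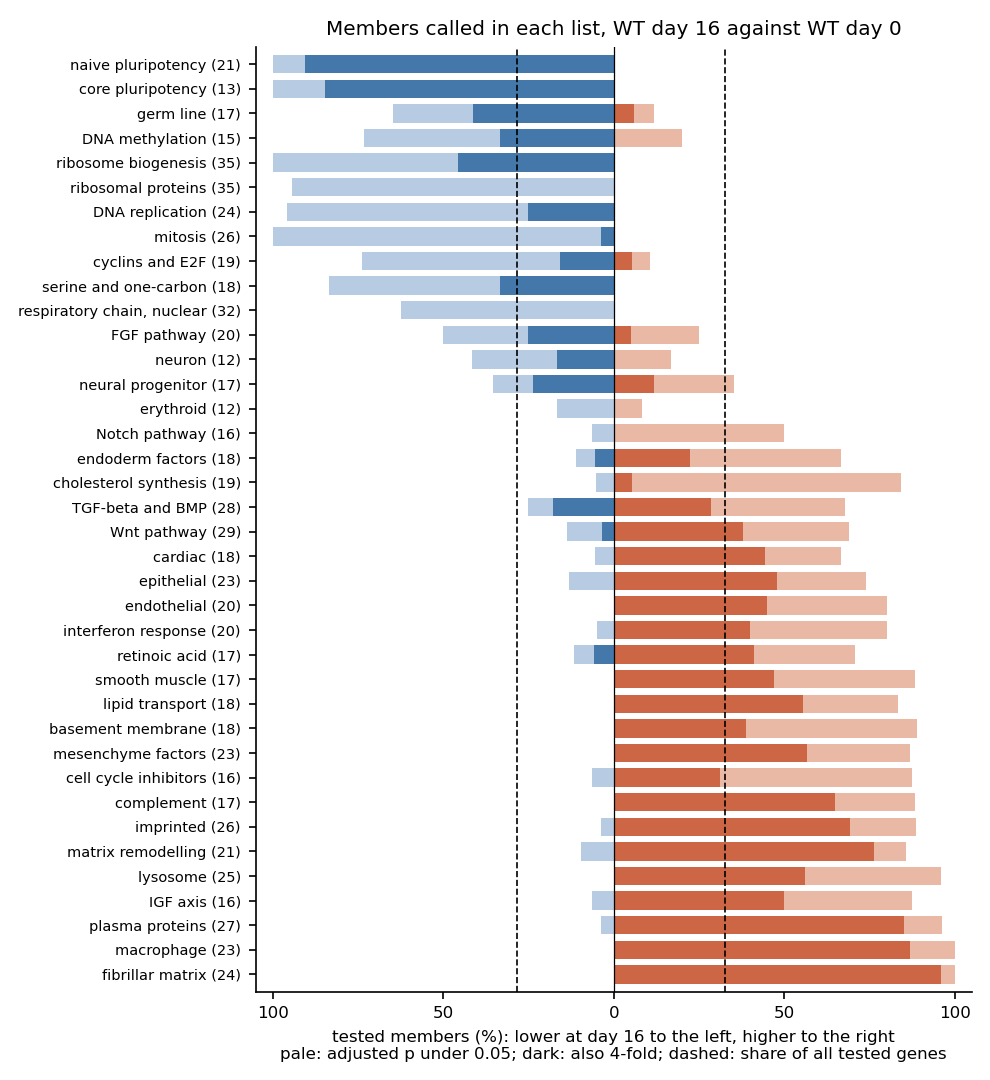
Share of tested members called higher (right) or lower (left) at day 16 in a selection of the 71 lists, with the number tested in parentheses, pale for an adjusted p under 0.05 and dark for the 4-fold rule as well. Dashed lines mark the shares of all tested genes, 32.7% higher and 28.5% lower. Mitosis and ribosomal proteins show nearly full pale bars with little dark, and plasma proteins, macrophage and fibrillar matrix show mostly dark ones.

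Genes of cell division fell together, most of them by less than 4-fold. Each of 26 mitosis genes and 23 of 24 DNA replication genes fell, with medians of -1.29 and -1.47. Past the 4-fold rule 6 of the 24 replication genes were lower, against 3.13% of all tested genes. A single mitosis gene passed the 4-fold rule, Cdc20, the activator of the anaphase-promoting complex, at 126 and 121 FPKM and then at 26.9 and 31.6 (log2 change -2.05 ± 0.09 (SE), adjusted p = 8.9e-08). Mki67, the usual marker of dividing cells, was at 32 and 35.3 FPKM against 28.2 and 27.2, the smallest fall of the list (log2 change -0.27 ± 0.08 (SE), adjusted p = 0.0183). That call was lost without day 0 replicate 2 (limma, adjusted p = 0.123), without day 16 replicate 2 (adjusted p = 0.0706) and with the 4 libraries alone (adjusted p = 0.0566). Cdk1 was at 186 and 155 against 107 and 79.2. Replication genes moved unequally as well. Mcm10, which helps to start forks, was at 40.5 and 36.4 FPKM and then at 4.9 and 3.96, while the ribonucleotide reductase subunit Rrm1 was at 66.1 and 60.1 and then at 33.4 and 38.9.

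Promoters of the mitosis list carry known motifs, and they are printed since the 26 genes fell, each by its own amount. TTTGAA, the cell cycle genes homology region, and CCAAT, the box bound by NF-Y, were searched on both strands in the same windows. Of the 26 genes 22 had a window. TTTGAA was found in 17 of their 23 windows (73.9%) and CCAAT in 20 (87.0%), against 12.2% and 37.8% of the 14231 windows of tested genes. Both were found in 17 windows of the list (73.9%) and in 5.0% of all windows. The windows of Cdc20 (chr4:118437294-118437593, minus strand) and of the cyclin gene Ccnb2 (chr9:70421505-70421804, minus strand) are given 5′ to 3′ with every TTTGAA and CCAAT in capitals.
Cdc20: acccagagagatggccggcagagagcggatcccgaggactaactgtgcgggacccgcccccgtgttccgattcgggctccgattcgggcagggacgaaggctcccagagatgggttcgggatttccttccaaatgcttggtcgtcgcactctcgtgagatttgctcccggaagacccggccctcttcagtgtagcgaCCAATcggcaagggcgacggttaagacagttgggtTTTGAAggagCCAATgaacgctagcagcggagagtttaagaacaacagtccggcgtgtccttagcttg
Ccnb2: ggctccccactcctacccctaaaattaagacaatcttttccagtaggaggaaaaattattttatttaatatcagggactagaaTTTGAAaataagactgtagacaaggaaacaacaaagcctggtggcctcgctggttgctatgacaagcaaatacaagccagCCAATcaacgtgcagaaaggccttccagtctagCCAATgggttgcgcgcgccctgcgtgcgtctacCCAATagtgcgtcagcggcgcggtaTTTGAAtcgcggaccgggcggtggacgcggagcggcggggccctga
In Cdc20 the TTTGAA begins at base -18 and the nearest CCAAT at -8, counted from the start of transcription without a base 0, and in Ccnb2 the CCAAT boxes begin at -87, -54 and -21 and the nearer TTTGAA at 5. The fall of Ccnb2 was from 56.8 and 49.4 to 23.9 and 22.7 FPKM.

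Brakes on the cycle rose in 14 of 16 cases. Cdkn1a (p21) was at 13.9 and 11.9 FPKM and then at 85.1 and 82.3 and Cdkn1c (p57) at 46.9 and 56.7 and then at 226 and 246. Gadd45a fell, from 54.4 and 55.3 to 13.7 and 12.5. Trp53 itself, high in ES cells, fell from 218 and 226 to 47.8 and 55.3 FPKM. Of 20 p53 target genes 7 rose and 10 fell, against 32.7% higher and 28.5% lower among all tested genes. Ccne1, the cyclin E that drives the short first gap phase of ES cells, went from 87.8 and 92.1 to 10.8 and 8.87 FPKM (log2 change -3.08 ± 0.14 (SE), adjusted p = 1.15e-07), and Mybl2 (B-Myb) from 161 and 157 to 13.8 and 15.1. Myc and Mycn were both lower, at 46.7 and 47.8 against 6.95 and 6.97 and at 70.3 and 72 against 19 and 21.8.

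Genes for making ribosomes fell further than those for their proteins. Each of 35 ribosome biogenesis genes fell, 16 past the 4-fold rule, with a median of -1.98 and a share of all FPKM of 1.14% in both day 0 libraries against 0.327% and 0.334%. Ddx21, a nucleolar helicase, was at 119 and 123 FPKM and then at 15.8 and 15.6, and Rrp9, a protein of the U3 small nucleolar ribonucleoprotein, at 60.9 and 62.3 and then at 6.79 and 8.77. Dkc1, the pseudouridine synthase of H/ACA small nucleolar ribonucleoproteins, went from 110 and 103 to 17.2 and 17.3 FPKM. Of 35 ribosomal protein genes 33 fell, with a median of -0.6 and none past the 4-fold rule. Rplp1 was at 1854 and 1911 FPKM and then at 835 and 907, and Rps19 did not pass, at 735 and 694 against 675 and 806. Host genes of small nucleolar RNAs were mixed: Gas5 was at 191 and 212 FPKM against 197 and 197 (log2 change -0.03 ± 0.09 (SE), adjusted p = 0.827), Snhg1 and Snhg12 did not pass either, and Snhg3 fell from 61.1 and 47 to 16.7 and 8.31, a call lost at a pseudocount of 0.1 (limma, adjusted p = 0.0994).

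Among metabolic genes, serine, folate and amino acid stress genes fell in 15 of 18 cases and none rose. Asns, asparagine synthetase, went from 102 and 111 to 14.2 and 16.7 FPKM, Mthfd1, of the folate cycle, from 92 and 100 to 17.2 and 16.2, and Tdh, the threonine dehydrogenase on which mouse ES cells depend, from 98.5 and 95.3 to 4.68 and 7.09. Of 32 nuclear genes of the respiratory chain 20 fell and none rose, with Uqcrc1 at 136 and 125 and then at 47.9 and 55.1 FPKM. Of 13 mitochondrially encoded genes 5 rose, a share near the 32.7% of all tested genes, and 1 fell, and 3 rose and 2 fell without day 0 replicate 1 or without day 16 replicate 1. The most abundant of those that rose, mt-Co1, went from 5521 and 5693 to 8533 and 7218 FPKM. Of 25 glycolysis and hypoxia genes 10 rose and 8 fell, shares near those of all tested genes. Eno1 fell from 670 and 648 to 310 and 335 and Pkm from 924 and 922 to 427 and 457, while Tpi1 rose from 142 and 137 to 300 and 305 FPKM. Cholesterol synthesis genes rose in 16 of 19 cases by modest amounts (median 0.79), with Insig1 at 38.2 and 39.2 and then at 116 and 114 FPKM.

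Imprinted genes, expressed from 1 parental copy, rose almost throughout. Of 26 tested, 23 rose, 18 past the 4-fold rule, and Snrpn fell, with a median of 2.72. Their summed share went from 0.179% and 0.196% of all FPKM to 2.0% and 2.05%. Igf2, the fetal growth factor, was at 46 and 51.6 FPKM and then at 3515 and 3477, 71.6-fold higher in the means (log2 change 6.14 ± 0.11 (SE), adjusted p = 1.18e-09). H19, expressed from the other parental copy of the same domain on chromosome 7, was at 18.9 and 17.7 FPKM and then at 583 and 595. Pairs of opposite parental origin rose together in other domains too: Dlk1, from 12.6 and 13.4 to 837 and 877 FPKM, with Meg3, from 71.6 and 77.7 to 493 and 522, and Igf2r, from 6.47 and 5.47 to 71.9 and 75.4, with its antisense RNA Airn, from 0.312 and 0.201 to 12.8 and 14.8. Whether counting used strand is not given, so reads of Airn and Igf2r cannot be told apart where they overlap. Snrpn went from 35 and 36.6 to 7.57 and 10.1 FPKM, and Phlda2 (87.1 and 115 against 93.7 and 66.2) and Ascl2 did not pass.

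The wider IGF axis moved with its ligand. Of 16 genes 14 rose. Igf1r, the signalling receptor, was at 3.07 and 3.35 FPKM and then at 13.9 and 14.5, and Igf2r, which clears the ligand, has been given above. Binding proteins rose from low levels, Igfbp1 from 1.03 and 0.665 to 140 and 134 FPKM, Igfbp4 from 6.6 and 4.49 to 229 and 249 and Igfbp5 from 1.02 and 1.11 to 99.2 and 97.3, whereas Igfbp2, high in ES cells, went from 128 and 125 to 181 and 200 and Igfbp6 did not pass. The 1 lower gene was Igf2bp1, an RNA-binding protein of fetal tissues.

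Hox genes, which give cells their position along the body, were counted by cluster, and the clusters were not compared by a test. In the B, C and D clusters 6 of 7, 5 of 5 and 5 of 6 tested genes rose and none fell. In the A cluster 2 of 7 rose, a share near the 32.7% of all tested genes, and 1 fell, against 28.5% of all. Hoxc8 reached the highest level, at 0.221 and 0.169 FPKM at day 0 and 19 and 16.4 at day 16 (log2 change 3.96 ± 0.21 (SE), adjusted p = 3.54e-07), then Hoxc6, at 0.0988 and 0 and then 10.8 and 12. The next were Hoxb2 (6.65 and 8.62) and Hoxd8 (6.09 and 5.61), and their order was not tested. In the A cluster Hoxa5 was at 1.84 and 0.929 against 1.53 and 1.04, and the rises were in Hoxa11 and Hoxa13, the latter at 0.823 and 0.157 and then 3.67 and 3.82. In the A cluster 0 genes rose at a pseudocount of 0.1, and 1 rose with the 4 libraries alone or when day 0 replicate 1, day 0 replicate 2 or day 16 replicate 1 was left out, and the D cluster count was 3 at a pseudocount of 0.1.

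Retinoic acid genes, which act on Hox clusters among others, rose in 12 of 17 cases. Rarb, a receptor that is itself induced by retinoic acid, was at 8.54 and 12.4 FPKM at day 16, with a mean of 0.106 at day 0, and Cyp26a1, the enzyme that degrades the ligand, rose from 1.12 and 0.774 to 9.28 and 10.4 FPKM. Dhrs3, which returns retinal to retinol, rose from 0.653 and 1.21 to 16.9 and 22.4. Rarg, the main receptor of ES cells, fell from 75.8 and 74.4 to 16.8 and 14.3 (log2 change -2.21 ± 0.09 (SE), adjusted p = 8.37e-08).

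Wnt, TGF-beta and Notch genes showed gains of ligands, receptors and secreted inhibitors at once. In the Wnt list 20 of 29 tested genes rose and 4 fell, and 2 fell when either day 0 library or day 16 replicate 1 was left out, with no filter or under TPM scaling. Wnt5a, Wnt6 and Wnt11 reached 6.87 to 13.1 FPKM from at most 2.08. The inhibitor Dkk2 was at 0.0741 and 0.191 FPKM and then at 29.9 and 30.4 (log2 change 4.78 ± 0.25 (SE), adjusted p = 2.81e-07), and Frzb at 0.0885 and 0.228 and then 8.6 and 9.59. Axin2, a common readout of canonical Wnt signalling, did not pass, at 9.03 and 13 FPKM against 10.9 and 9.46. Of 28 TGF-beta and BMP genes 19 rose and 7 fell. All 3 TGF-beta ligands rose, with Tgfb1 at 1.62 and 1.1 and then at 25 and 26.3 FPKM, and so did the receptor Tgfbr2, from 0.515 and 0.459 to 25.3 and 26, and the induced matrix protein Tgfbi, from 1.71 and 2.04 to 90.7 and 92.5. Of 16 Notch genes 8 rose and 1 fell, by less, with Jag1 at 2.58 and 1.96 and then 8.08 and 7.68.

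Chromatin genes fell more often than they rose, while over all tested genes 28.5% were lower and 32.7% higher. Of 15 genes of DNA methylation 11 fell and 3 rose. Dnmt3b was at 59.6 and 61.8 FPKM and then at 7.57 and 8.08, and Dnmt3l, a cofactor without enzyme activity, at 130 and 120 and then at 4.48 and 2.82, whereas the maintenance enzyme Dnmt1 went from 31 and 31.4 to 17.2 and 18.7. Of 19 Polycomb genes 9 fell and 4 rose. Accessory subunits of ES cells fell most, Phc1 from 92.7 and 90.7 to 9.65 and 11.9 FPKM and Epop from 152 and 147 to 18.7 and 20.7, and the catalytic Ezh2 from 58.6 and 62.7 to 21.8 and 25.9 while its relative Ezh1 rose from 6.75 and 4.9 to 9.3 and 10.3. The Ezh1 call was lost (limma, adjusted p = 0.161, 0.0626 and 0.114) when day 0 replicate 2, day 16 replicate 1 or day 16 replicate 2 was left out. In the BAF remodelling complex 9 of 17 fell and 5 rose, and 3 rose when either day 0 library or day 16 replicate 2 was left out or with the 4 libraries alone.

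Within several families 1 member fell and another rose. These pairs were picked after their values were seen and are shown as descriptions. The BAF ATPase Smarca4 was at 47.3 and 44.4 FPKM against 25.8 and 27.7, while Smarca2 was at 5.47 and 8.7 against 34.7 and 36.4, so their order was reversed. Among the enzymes that oxidise methylcytosine, Tet1 went from 127 and 112 to 3.97 and 4.51 and Tet3 from 2.39 and 2.56 to 11.8 and 11.4. Cyclin D1 (Ccnd1) went from 41.8 and 45.5 to 20.2 and 17.2 FPKM and cyclin D2 (Ccnd2) from 6.86 and 5.89 to 62.8 and 67.2. The architectural factor Hmga1 went from 438 and 421 to 95.9 and 123, and Hmga2 from 6.99 and 7.39 to 70.6 and 69.5 without overtaking it. Hmga2 rose although Lin28a and Lin28b, which shield it from let-7, fell. In the list of Lin28 and let-7 targets 12 of 17 were lower and 4 higher, against 28.5% and 32.7% of all tested genes. Frizzled receptors also crossed, Fzd5 from 22.1 and 24.5 to 4.34 and 3.97 and Fzd1 from 0.485 and 0.667 to 18.6 and 20.9.

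**Figure D4:**
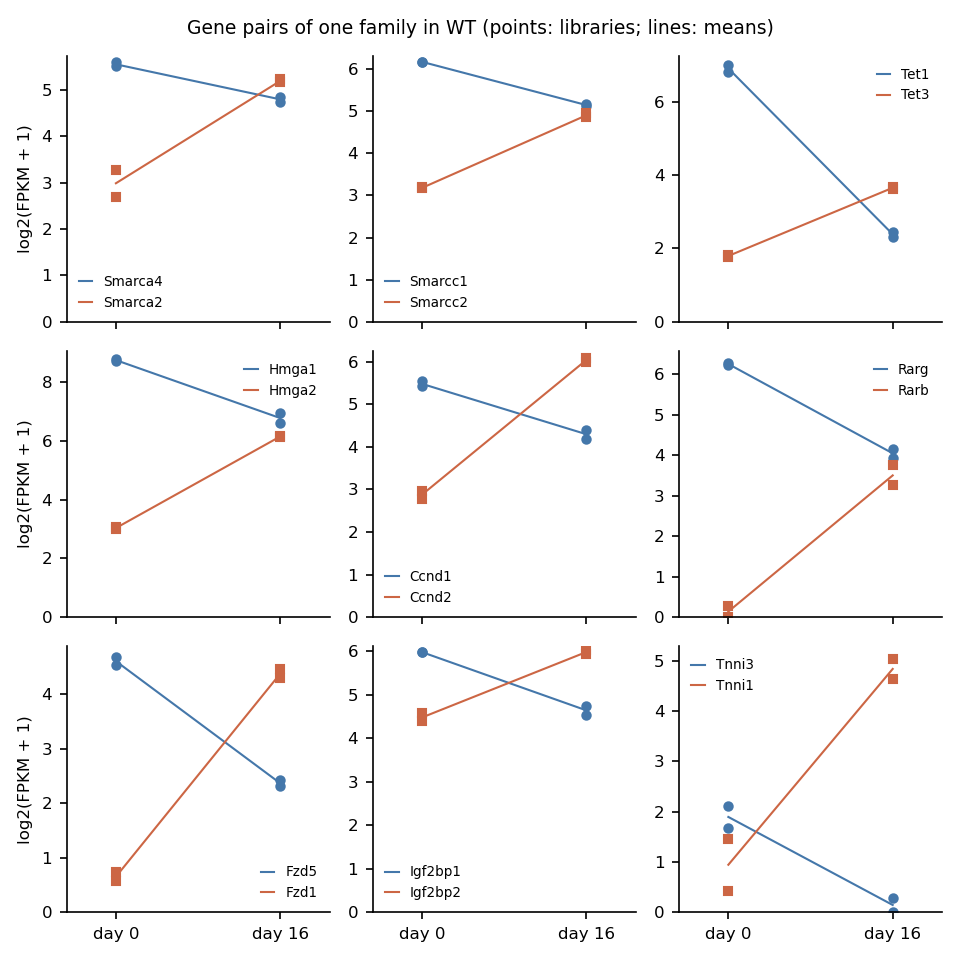
Level of 9 gene pairs in the WT libraries as log2(FPKM + 1), with points for single libraries and lines through the means, blue for the member that fell and orange for the one that rose. The lines cross for Smarca4 and Smarca2, Tet1 and Tet3, Ccnd1 and Ccnd2, Fzd5 and Fzd1, Igf2bp1 and Igf2bp2, and Tnni3 and Tnni1, and do not cross for Hmga1 and Hmga2, Smarcc1 and Smarcc2, or Rarg and Rarb.

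Long noncoding RNAs with names moved both ways, 6 higher and 8 lower of 19 tested. Of all tested genes, 32.7% were higher and 28.5% lower, and of 881 long noncoding genes 156 were higher and 156 lower. Platr10, of a family tied to pluripotency, was at 88.9 and 93.7 FPKM and then at 2.23 and 5.67, Lncenc1 at 37 and 39.3 and then at 2.68 and 3.21, and Halr1, next to the HoxA cluster, at 51.9 and 71.7 and then at 1.32 and 1.91. The nuclear RNAs Malat1 and Neat1 rose, from 54.3 and 46.2 to 199 and 192 and from 14.6 and 13 to 43.5 and 45.4 FPKM.

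The WT day 8 libraries show how far the endpoint differed from a straight course. The naive list had already dropped to 0.0572% and 0.0614% of all FPKM by day 8, close to its day 16 share. Imprinted genes were at 1.37% in both day 8 libraries, most of the way to their day 16 shares. Lipid transport genes were at 0.91% and 0.932%, but Apoe alone made up 2749 and 2867 of the list's 4045 and 4211 FPKM. Members of that list then parted. Apoe went to 1549 and 1749 FPKM at day 16 and Apom from 149 and 185 to 101 and 120. Apoa1 went from 146 and 155 to 970 and 1064 and Apoa4 from 5.95 and 8.92 to 193 and 213. Plasma proteins (0.41% and 0.418%), fibrillar matrix (0.251% and 0.262%) and macrophage genes (0.00754% and 0.00804%) had most of their gain still ahead. Globins peaked between the endpoints, at 0.273% and 0.297% of all FPKM against 0.0137% and 0.0208% at day 16. Hand1 was at 154 and 162 FPKM at day 8 and Podxl, a sialomucin of podocytes and endothelium, at 252 and 247, both above their day 16 values of 58.9 and 65.7 and of 91.2 and 98.4. These day 8 values are given as description, without a test.

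**Figure D5:**
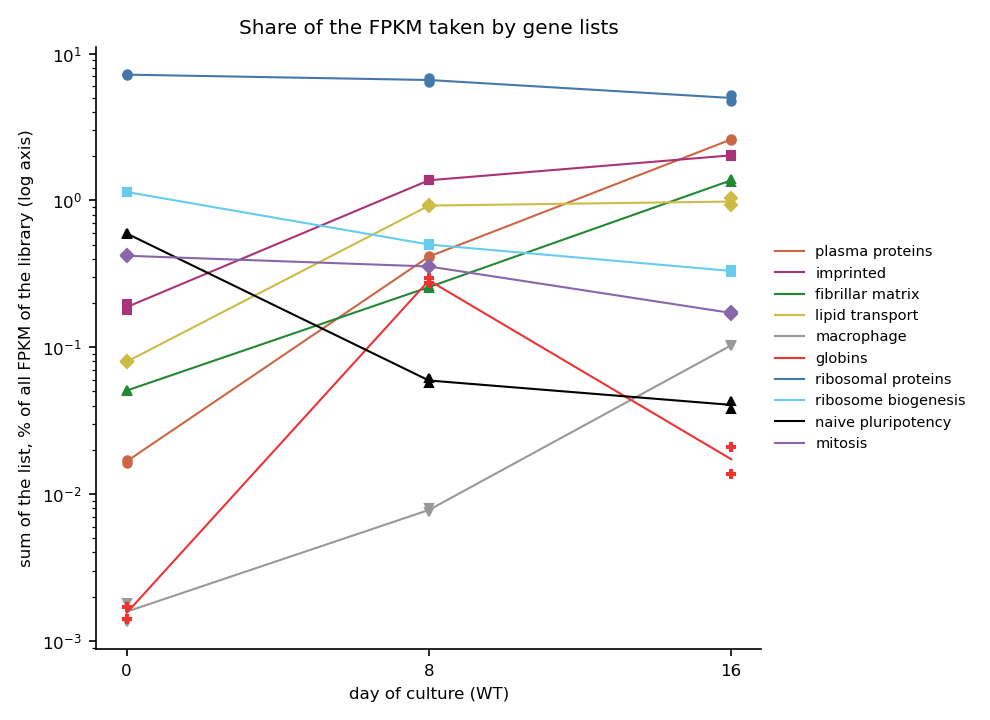
Summed FPKM of 10 gene lists as a percent of all FPKM of the library, on a log axis, in WT at days 0, 8 and 16, with a point for each library and lines through the means. Plasma proteins, fibrillar matrix and macrophage genes rise through day 16, the naive list drops before day 8, and globins are highest at day 8.

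The change over 16 days was also set against that of the 1343KO line, which has its own day 0 and day 16 libraries. The changes differed for 6512 of the 16289 tested genes (40.0%), by the interaction term of the same fit. In that line Pou5f1 went from 851 and 801 to 419 and 397 FPKM, so the WT fall was larger by 4.1 on the log2 scale (SE 0.13, adjusted p = 1.58e-07). Afp was at 58.7 and 36.9 FPKM and then at 43.1 and 29.5 there, a difference of 7.91 ± 0.3 (SE, adjusted p = 3.64e-07) between the changes. By list, 18 of 21 naive genes fell further in WT, and 25 of 27 plasma protein genes, 24 of 24 fibrillar matrix genes and 23 of 23 macrophage genes rose further in WT. In heart genes a difference was found for 3 of 18. Tnnt2 went there from 0 in both libraries to 12 and 8.89 FPKM, and its change did not differ at the threshold (0.68 ± 0.36 (SE), adjusted p = 0.169). Of 18 trophoblast genes the WT change was the lower for 8 and the higher for 5, with Prl3d1 at 7.55 and 5.67 FPKM in the knockout line and at 0 in WT at day 16. The knockout was read in 1 line, so effects of the line and of the knockout cannot be told apart.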

How the data were processed

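Poly(A) RNA of WT and 1343KO cells was sequenced with an Illumina kit workflow in 12 libraries, 2 for each of 6 groups, per the labels' protocols. The authors deposited 1 table of FPKM values per gene, with Cufflinks 2.1.1 and the builds GRCm38 and mm10 named per the submitters' processing notes. For the aligner, the annotation release and the strand setting of the counting, nothing is given in the sources. FPKM gives no counts, and depth was estimated from the steps between low values of long single-transcript genes, of which 68.7% to 71.1% fell within 5.0% of a whole fragment in the 4 libraries compared. Those depths are therefore estimates, and no count test was run.

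Values were tested as log2(FPKM + 1) with limma 3.58.1 in R 4.3.3 (trended empirical Bayes, 1 mean per group, 12 libraries, 6 residual degrees of freedom), over 16289 of 54537 genes (those reaching 1 FPKM in 2 or more libraries), with Benjamini-Hochberg adjustment and a threshold of 0.05. On simulated data for this comparison, 16289 genes held 200 changed ones. The test found 72% of those changed 2-fold and 94% of those changed 4-fold, with 7.78% false calls and 0 wrong signs. The changed genes were drawn only from those above a set level at day 0, so recovery of genes that start near 0 was not measured. In the data 61.2% of genes were called, so the simulated share of false calls does not carry over. Of genes with a symbol listed on several rows the most abundant row was used. Named genes were the 15 largest rises and falls called under the rule, the 10 highest at each day, and members of 71 lists of 1347 genes, 1329 of them in the table and 1118 tested. The comparison and the lists were chosen with earlier results of these data known. Alternatives were the pseudocount, the filter, the replicate number as a block, the scaling, robust variance, the WT libraries alone and each library left out. Promoter sequences are RefSeq's for GRCm38.p6. A few list members are not reported here.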

Additional observations from a re-analysis of the deposited data

Results flagged for a closer look

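The change from day 0 to day 16 differed between WT and the 1343KO line for 6512 genes by the interaction term of the limma fit. Each value here is the WT change minus the 1343KO change in log2(FPKM + 1), and each passed the adjusted threshold. For ES cell markers it was -4.1 for Pou5f1, -3.71 for Nanog, -3.7 for Sox2, -4.14 for Zfp42 and -4.31 for Esrrb, so each fell further in WT. For endoderm it was 7.91 for Afp, 5.8 for Ttr, 5.64 for Apob and 6.09 for Apoa1. For fibroblast markers it was 7.09 for Col1a1, 6.64 for Col1a2, 5.26 for Col3a1 and 6.48 for Dcn, and for smooth muscle 2.98 for Acta2. Endothelial markers differed by 2.46 (Cdh5) and 1.89 (Kdr), and macrophage markers by 3.56 (Csf1r), 4.34 (C1qa) and 3.79 (Adgre1). Hba-a1 of red cells differed by 3.49 and Vil1 of gut epithelium by 3.42. The WT change was the lower for Stmn2 of neurons (-2.77) and for Prl3d1 (-3.01) and Tpbpa (-1.63) of trophoblast. With 2 libraries in each group, no single library could be examined as standing apart.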

How the results depend on the processing

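The 9972 calls ranged from 6863 (mean of at least 5 FPKM, 9602 genes tested) to 10337 (TPM scaling) and were 8730 to 8855 with a library left out. The 4-fold calls, 1882 in the main analysis, were 3546 (2451 higher, 1095 lower) at a pseudocount of 0.1, which shrinks low genes less, and 1933 to 1957 with a library left out. List genes called were 935, and 885 to 899 with a library left out. The 6512 genes whose change differed between lines were 5599 to 5816 with a library left out, and the share with a positive difference went from 45.6% to 52.6% under median-of-ratios scaling. Same-numbered replicates of WT day 0 and day 16 did not deviate together (correlation 0.017), so the numbers were not taken as pairs. With the replicate number as a block the counts were 9924, 1881 for the 4-fold rule, 933 for list genes and 6420 for the difference between lines. Of 281 named genes no estimate reversed, and 10 lost their call in at least 1 alternative: Evx1, Ezh1, Gsc, Hoxa11, Hoxa13, Mki67, Snhg3, Timp1, Tnni3 and Zscan4b. Other named genes gained a call: Etv2 and Fgf5 at a pseudocount of 0.1 and under TPM scaling, and Fgf5 with the replicate block. Hbb-bh1 gained one with the 6 WT libraries alone and Myh6 with the 4 libraries alone. Runx2 and mt-Atp8 did so only with a library left out. A left-out library leaves 1 in its group, which is then assumed to vary like the others. In the A cluster of Hox genes 0 rose at a pseudocount of 0.1 and 1 with the 4 libraries alone, without either day 0 library and without day 16 replicate 1. Low genes are limited by depth: a gene under 1 FPKM rests on few fragments.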
